A study of Homo sapiens with 12 samples.

Results

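The respiratory chain genes were followed in 3 human renal carcinoma cell lines whose miR-29 activity had been raised or lowered. The set holds every protein-coding gene whose GENCODE symbol starts with MT-, NDUFA, NDUFB, NDUFC, NDUFS, NDUFV, UQCR, ATP5 or COX4 to COX8, together with SDHA, SDHB, SDHC, SDHD and CYC1. This rule found 112 of the 58051 genes in the count tables, 13 encoded by mitochondrial DNA and 99 by nuclear DNA. The nuclear genes comprised 37 subunits of complex I, 8 assembly factors of complex I, 4 subunits of complex II, 10 of complex III, 19 subunits or subunit isoforms of complex IV, 19 of ATP synthase and 2 read-through genes. Levels are given as CPM, the counts of a gene per 1000000 counts in all genes of that library, and 106 members had over 3 counts in at least 1 library.

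786-O and A-498 cells were given either a control mimic or a miR-29 mimic, a short synthetic duplex that acts as extra mature miR-29. ACHN cells received a miR-29 inhibitor, which blocks miR-29, or a control inhibitor. All 3 are established lines that the labels describe as clear cell renal carcinoma, each one is a single line, and all cells were transfected with 10 nM of RNA with RNA extraction 48 h later. There was 1 library per group in 786-O, 2 per group in A-498 and 3 per group in ACHN, which the study describes as biological replicates.

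The respiratory chain passes electrons from NADH (complex I) and succinate (complex II) through complex III to oxygen at complex IV, and ATP synthase uses the proton gradient that complexes I, III and IV build. Complexes I, III and IV and ATP synthase are assembled from subunits of both genomes, whereas complex II is wholly nuclear. The mitochondrial mRNAs come from long polycistronic transcripts made by a dedicated polymerase, so their levels are set by a machinery separate from that of the nuclear subunits. Clear cell renal carcinoma is known for loss of VHL, stabilised hypoxia-inducible factors and low respiratory chain content.

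The 3 mature miR-29 molecules share 1 seed, the stretch that pairs with target mRNAs, shown here in capitals (bases 2 to 8). They are read from RefSeq on GRCh38: miR-29a-3p lies at chr7:130876748-130876769, miR-29b-3p (of the MIR29B2 gene) at chr1:207802450-207802472 and miR-29c-3p at chr1:207801865-207801886, all on the minus strand.
hsa-miR-29a-3p: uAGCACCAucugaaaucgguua
hsa-miR-29b-3p: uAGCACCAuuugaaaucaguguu
hsa-miR-29c-3p: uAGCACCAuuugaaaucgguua

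A match to this seed reads TGGTGCT in the mRNA strand of a 3′ UTR, and TGGTGCTA where the base opposite position 1 is an A (an 8mer match). The longest annotated 3′ UTR of each gene was searched on its own strand. A match was found in 11 of the 99 nuclear members (11.1%) and in 2878 of 19043 protein-coding genes (15.1%), and the median length searched was 413 and 1240 bases respectively. The 3 members with an 8mer match and COX7A2L, whose 7-base match is the only one besides that of ATP5MC3 in a member that fell in A-498 and was over 1.5-fold lower in 786-O, are printed with the match in capitals. The matches lie at chr2:175177419-175177425 (ATP5MC3), chr2:42351003-42351009 (COX7A2L), chr7:10933050-10933056 (NDUFA4) and chr19:1598201-1598207 (UQCR11), all in 3′ UTR exons on the minus strand of GRCh38. They start 863, 210, 580 and 37 bases after the stop codon in that order.
ATP5MC3: aaggaagaagaTGGTGCTActatagacagt
COX7A2L: gtttaaagaaaTGGTGCTttgctctgtgtt
NDUFA4: agtgctaaccaTGGTGCTAgtagtcaagag
UQCR11: ctggtgcctggTGGTGCTAgctcctcccac

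Counts in genes ranged from 39919554 to 70027392 per library. Reads not assigned to a single gene made up 45.7% and 48.0% in the 786-O libraries and from 37.2% to 40.6% in the others, and 786-O labels alone carry a sequencing-run string, so in 786-O cell line and run cannot be told apart. Renal tubule markers were present in every line (summed level 1353 to 3311 CPM over 7 genes), whereas the 4 leukocyte markers summed to at most 0.992 CPM and the 4 endothelial markers to at most 0.802 CPM, with CD3E at 0 in 786-O and A-498 and KDR at 0 in ACHN. Of the 7 detected genes of a list of well-known miR-29 targets, all 7 fell in A-498, all 7 rose in ACHN and all 7 lay below 0 in 786-O (median log2 change -1.75, 1.04 and -1.95). As these are bulk libraries, fewer cells of a type and less RNA per cell cannot be told apart.

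Baseline levels of the 13 mitochondrially encoded mRNAs differed widely between libraries of the lines, although in 786-O line and sequencing run cannot be told apart. They took 7.74% of all counts in genes in the 786-O control library, 1.01% and 1.02% in the A-498 controls, and 0.762%, 0.720% and 0.732% in the ACHN controls. All 786-O values were thus far above those of both other lines, and the A-498 and ACHN ranges did not overlap. The A-498 mean of 1.02% ± 0.00395 (SD, n = 2) against the ACHN mean of 0.738% ± 0.0217 (SD, n = 3) gave p = 0.1 in a two-sided exact permutation test, the smallest p these libraries allow.

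The excess in 786-O was very unequal between mitochondrial genes. MT-CO3, a core subunit of complex IV, stood at 6767 CPM in the 786-O control against 3503 and 3485 in A-498, 1.94-fold higher. MT-ND2, a core subunit of complex I, stood at 5467 CPM against 22.9 and 24.0, 233-fold higher. The median of the 13 ratios was 32.7 against A-498 and 47.3 against ACHN, where MT-CO3 was again lowest (3.34) and MT-ND2 highest (144).

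The makeup of the mitochondrial counts differed accordingly. The complex IV genes MT-CO1, MT-CO2 and MT-CO3 supplied 44.3% and 42.8% of them in the 786-O libraries, and between 89.7% and 91.4% in the 10 other libraries. The mitochondrial ribosomal RNAs, which library preparation removes in part, showed the reverse order, with 34.8 and 22.1 CPM in 786-O and from 455 to 1055 CPM elsewhere. Alignments of low quality made up 25.8% and 24.7% of reads in 786-O and from 16.7% to 20.1% elsewhere, and counts on 399 nuclear copies of mitochondrial genes summed to 818 and 871 CPM in 786-O against 33.5 to 56.4. The share going to one such copy, MTND2P28, was alike in all lines at 9.88% to 12.2% of the MT-ND2 level. Whether any of these values bears on the 786-O excess was not tested, and with 1 library per group the difference has no replicate check.

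**Figure D1:**
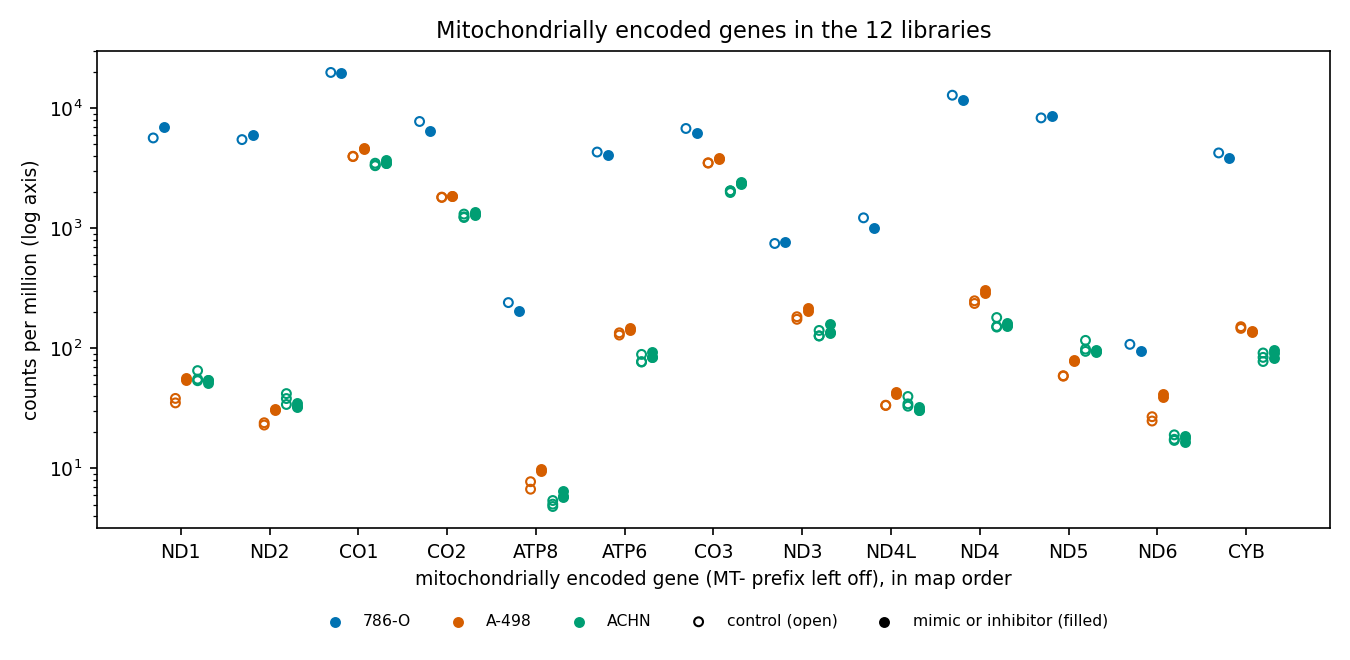
Level of each of the 13 mitochondrially encoded mRNAs (CPM, log axis) in each of the 12 libraries, coloured by cell line, with open circles for control libraries and filled circles for mimic or inhibitor libraries. The 786-O points lie above those of the other lines for every gene, from 1.94-fold over the A-498 controls for MT-CO3 to 233-fold for MT-ND2, while replicates of A-498 and ACHN lie close together.

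Per kb of annotated exon, mitochondrial genes were the highest members in each line. This length merges the exons of all annotated transcripts of a gene and can exceed that of a single mRNA (5081 bases for ATP5F1E). Ranks of nuclear members by it are therefore uncertain. In A-498 controls the mean level was 4457 CPM per kb of exon for MT-CO3, 2645 for MT-CO2 and 2568 for MT-CO1, followed by MT-ND3 at 516. The nuclear members NDUFS5, a complex I accessory subunit (322 CPM per kb), and ATP5F1B, the catalytic beta subunit of ATP synthase (272), then exceeded MT-ATP6 (193) and MT-ND4 (176). In the 786-O control the highest nuclear member was ATP5F1B, at 199 CPM per kb, and all 13 mitochondrial genes lay above it, the lowest being MT-ND6 at 205.

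The nuclear members went the other way in the single 786-O control library. Of 88 nuclear members with at least 1 CPM in some control group, 71 were lower in 786-O than in A-498 and 70 lower than in ACHN, with median ratios of 0.564 and 0.571. Over all 12546 genes the same medians were 0.880 and 0.891. The nuclear members took 0.516% of counts outside mitochondrial genes in the 786-O control, 0.803% and 0.798% in the A-498 controls, and 0.853%, 0.827% and 0.842% in the ACHN controls. COX4I1, the ubiquitous form of complex IV subunit 4, gives an example at 59.2 CPM in 786-O, 292 and 275 in A-498, and 300.3, 299 and 310.2 in ACHN. Complex II, for which 3 of 4 subunits stood at or above the A-498 level, had median ratios of 1.12 against A-498 and 0.735 against ACHN.

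Between the A-498 and ACHN controls, 36 of 105 tested members were lower in A-498 and 51 higher (edgeR quasi-likelihood test, Benjamini-Hochberg adjusted p under 0.05). The background was high, since 38.7% of all 19689 tested genes were lower and 41% higher, so the members' 34.3% lower and 48.6% higher are close to it. The lines differ in control reagent as well, and line and reagent cannot be told apart here. Mitochondrially encoded members were higher in A-498 for 9 of 13 and lower for 3, and the 3 lower ones were MT-ND1, MT-ND2 and MT-ND5 (log2 difference -0.67, -0.71 and -0.82). The median difference of the 13 was 0.50.

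Complex II was lower in A-498 for all 4 subunits, where 38.7% of all genes were lower. SDHB, its iron-sulphur subunit, was at 66.0 and 65.7 CPM in A-498 and 109.5, 108 and 108 in ACHN (log2 difference -0.73, SE 0.0429, edgeR adjusted p = 2.99e-12). SDHA, SDHC and SDHD differed by -0.20, -0.21 and -0.51. In complex III, 7 of 10 members were higher in A-498 (70%, against 41% of all genes). They were led by UQCRHL, a near copy of the hinge subunit gene UQCRH, at 22.0 and 21.9 CPM against 7.94, 8.67 and 8.54 (log2 difference 1.38). Reads of UQCRHL may be shared with UQCRH, and its value is uncertain for that reason.

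The widest differences in complex I subunits lay in NDUFA9 and NDUFA12, accessory subunits. NDUFA9 was at 8.50 and 9.26 CPM in A-498 and 35.6, 36.4 and 33.8 in ACHN, a 0.251-fold level (log2 difference -2.00, SE 0.065, edgeR adjusted p = 1.41e-16). NDUFA12 was at 38.4 and 38.2 against 137, 132 and 129.9 CPM, and NDUFB8, another accessory subunit, at 9.15 and 9.14 against 17.9, 17.2 and 15.8. In the opposite direction NDUFA1 (73.5 and 70.0 against 33.0, 34.2 and 34.5 CPM), NDUFA8 (53.1 and 51.9 against 25.6, 25.6 and 24.6 CPM) and the assembly factor NDUFAF6 (24.2 and 25.7 against 12.8, 13.4 and 13.2 CPM) were higher in A-498. In complex IV, COX7B stood at 124 and 127 against 60.3, 59.4 and 63.1 CPM. In ATP synthase, ATP5F1B stood at 611 and 608 against 1283, 1246 and 1283 CPM, and ATP5MC2, which encodes the c subunit of the rotor ring, at 122 and 121 against 232, 231 and 229 CPM. Control groups that do not overlap were a condition for naming these genes.

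On chromosomes 12 and 8, singled out after the values were seen, all members differed in 1 direction. All 6 tested members on chromosome 12 (ATP5F1B, ATP5MC2, COX6A1, NDUFA12, NDUFA4L2 and NDUFA9) were lower in A-498, with a median log2 difference of -1.44, and the median over 757 protein-coding genes of chromosome 12 was -0.78, with 74.1% lower. All 5 members on chromosome 8 (COX6C, CYC1, NDUFAF6, NDUFB9 and UQCRB) were higher in A-498, with a median of 0.78, and the median over 490 protein-coding genes there was 0.66, with 71.0% higher. No other chromosome with at least 4 tested members had this, chromosome 1 holding 3 lower and 4 higher, chromosome 19 2 and 6, and chromosome 11 4 and 1. Subunits of the same complex differed in opposite directions, as NDUFA9 (chromosome 12) and NDUFB9 (chromosome 8) did in complex I, at -2.00 and 0.48.

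Isoforms used by other tissues were at or near 0. COX4I2, COX6A2, COX7A1, COX7B2 and COX8C had at most 3 counts in every library, as did the read-through gene NDUFC2-KCTD14, which shares 99.6% of its exon bases with other genes, and COX6B2 had at most 3 in every ACHN library. A count of 0 allows a level of up to 0.0752 CPM in the shallowest library, at 3 counts. COX7A1, the muscle form of subunit 7A, had 0 counts in 786-O and A-498 and at most 0.0411 CPM in ACHN. NDUFA4L2, a hypoxia-inducible relative of the complex IV subunit NDUFA4 known for high levels in clear cell renal tumours, was at 0.111 CPM in the 786-O control, 0.162 and 0.149 in A-498 controls, and 1.46, 1.53 and 1.33 in ACHN controls, so that this gene was low in all 3 lines.

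The miR-29 mimic in A-498 was compared with its control to see how the members respond to more miR-29. Of 104 members tested, 21 fell, 37 rose and 46 did not pass the test, against 27% of all 19676 genes that fell and 25.5% that rose. The members' shares were 20.2% lower and 35.6% higher, with a median log2 change of 0.06 against 0.0045 over all genes. Among protein-coding genes, 28.9% fell and 32.3% rose with no seed match, and 54.3% and 18.9% with a match. The split depends on the scaling: without the edgeR composition factors, which move every log2 change in A-498 by 0.077, it was 13 lower and 55 higher. Without mimic replicate 1 the counts were 13 and 23. The fold changes below include those factors and can therefore differ slightly from the ratio of the printed CPM.

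The mitochondrially encoded mRNAs rose for 9 of 13 genes (69.2%, against 25.5% of all genes). Their median log2 change was 0.22, and MT-CYB alone fell. The changes were largest among the complex I genes. MT-ND6, which is encoded on the opposite strand from the other mitochondrial mRNAs, went from 24.8 and 26.9 to 39.0 and 41.8 CPM (log2 change 0.57, SE 0.0603, edgeR adjusted p = 2.05e-06). MT-ND1 went from 35.1 and 38.2 to 54.4 and 56.3 CPM (0.52, SE 0.0542, edgeR adjusted p = 1.84e-06). In both genes the mimic libraries lay wholly above the controls.

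MT-ND5, MT-ND2, MT-ND4L and MT-ND4 rose by smaller amounts (0.36, 0.32, 0.27 and 0.22). MT-CO1, the catalytic subunit of complex IV, went from 3947 and 3973 to 4621 and 4535 CPM (0.13, edgeR adjusted p = 0.000509), a call lost without mimic replicate 1 (adjusted p = 0.068), as was that of MT-ND3 (0.15, adjusted p = 0.224 without it). MT-ATP8 rose by 0.34, a call lost without control replicate 3 (adjusted p = 0.0652). MT-CYB, the cytochrome b of complex III, went from 146 and 151 to 135 and 139 CPM (-0.19, edgeR adjusted p = 0.000847). MT-CO2, MT-CO3 and MT-ATP6 did not pass the test, at -0.03, 0.04 and 0.06, while without the composition factors MT-CO3 (0.12, adjusted p = 0.000983) and MT-ATP6 (0.13, adjusted p = 0.014) were called higher, 11 of 13 in all, and MT-CO2 lay above 0. The share of counts in the 13 genes was 1.01% and 1.02% in controls and 1.13% and 1.12% in mimic libraries (exact permutation p = 0.333, the smallest that 2 against 2 libraries allow).

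Among nuclear members of complex I in A-498, 9 subunits fell and 11 rose out of 37 (6 and 6 without mimic replicate 1, 7 and 5 without mimic replicate 2, and 6 and 19 without the composition factors). With all libraries 24.3% fell and 29.7% rose, close to the 27% and 25.5% of all genes. NDUFC2, an accessory subunit, went from 13.8 and 16.0 to 11.2 and 11.1 CPM (log2 change -0.50, SE 0.0827, edgeR adjusted p = 0.000147). NDUFA3 went from 45.1 and 40.7 to 63.7 and 63.3 CPM (0.49, SE 0.0545, edgeR adjusted p = 3.26e-06). The 2 core subunits in the panel of well-known members moved little. NDUFS1 was at 242 and 251 in controls and 237 and 238 CPM in mimic libraries (-0.13, a call lost without either mimic library and without the composition factors). NDUFV1 did not pass the test (-0.10). Outside the panel, the core subunit NDUFS8 was called higher and NDUFV2 lower, and each call was lost in some alternatives.

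Assembly factors build complex I without remaining in it, and the set holds only those whose symbol starts with NDUFAF. These rose for 5 of 8 genes (62.5%, against 25.5% of all genes), while complex I assembly factors with other symbols, given further below, were mixed. Of the 8, 0 fell (also 0 by DESeq2 and 0 at an unadjusted edgeR p under 0.05). NDUFAF4 went from 14.9 in both controls to 22.0 and 22.4 CPM (0.50, SE 0.0631, edgeR adjusted p = 1.24e-05). NDUFAF6 went from 24.2 and 25.7 to 33.8 and 35.4 (0.39), NDUFAF2 from 14.5 and 13.9 to 19.7 and 19.4 (0.38), and NDUFAF5 from 17.2 and 17.6 to 23.0 and 23.6 CPM (0.35). The count of 5 higher and 0 lower was also found by DESeq2, without the composition factors and in each of the 4 fits that left out 1 library. The summed level of the 8 genes was 172 ± 3.53 CPM in controls and 212 ± 1.46 in mimic libraries (SD, n = 2 each).

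Complex II subunits moved in opposite directions. SDHA, the flavoprotein that carries the active site, went from 237 and 227 to 179.5 and 183 CPM (-0.43, SE 0.0382, edgeR adjusted p = 3.29e-07). SDHB went from 66.0 and 65.7 to 80.5 and 79.0 CPM (0.20, edgeR adjusted p = 0.00139), a call lost without mimic replicate 1 (adjusted p = 0.0581). The membrane anchors SDHC and SDHD did not pass the test (-0.08 and 0.09).

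In complex III, 3 of 10 members rose and 2 fell (1 fell without control replicate 1 or either mimic library). With all libraries 30% rose and 20% fell, beside 25.5% and 27% of all genes. UQCRFS1, the Rieske iron-sulphur protein, went from 121 and 118 to 102 and 101 CPM (-0.31, edgeR adjusted p = 1.34e-05). CYC1, cytochrome c1, went from 151 and 139 to 172 and 176 CPM (0.19, edgeR adjusted p = 0.00208), and the core protein UQCRC1 did not pass the test (-0.01). In complex IV, 6 of 13 tested members rose and 2 fell, COX7A2L and COX8A (46.2% and 15.4%, against 25.5% and 27% of all genes). COX8A changed by -0.13 (edgeR adjusted p = 0.044) between groups that overlap, control replicate 3 at 47.5 CPM lying below mimic replicate 2 at 47.7 CPM, and its call was lost in 5 of 8 alternatives, namely DESeq2, no composition factors, and without control replicate 1 or either mimic library. Only 1 rose without either mimic library, 3 by DESeq2 and 10 without the composition factors, while COX7A2L kept its call in every fit run. COX7A2L, known for joining complexes III and IV into supercomplexes, went from 100.2 and 103 to 82.7 and 81.0 CPM (-0.39, SE 0.042, edgeR adjusted p = 2.66e-06). COX4I1 and NDUFA4 did not pass the test (0.09 and 0.06).

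ATP synthase held the largest decrease of all members. ATP5F1C, the gamma subunit of the rotating stalk (chr10:7788147-7807815, plus strand, GRCh38), went from 229 and 235 to 143 and 139 CPM (log2 change -0.79, SE 0.0381, edgeR adjusted p = 5.64e-10), a decrease of 42.2% that both mimic libraries showed. ATP5MC3, one of the genes for the c subunit, went from 251 and 246 to 188 and 186 CPM (-0.48, SE 0.0364, edgeR adjusted p = 6.02e-08). In all, 6 of 19 members fell and 2 rose, ATP5MK and ATP5PD (0.27 and 0.26), and 3 fell without either mimic library or without the composition factors. With all libraries 31.6% fell and 10.5% rose, against 27% and 25.5% of all genes. The catalytic head subunits moved little, with ATP5F1B called lower (-0.10, edgeR adjusted p = 0.0158) and ATP5F1A and the inhibitor ATP5IF1 not passing the test (-0.02 and -0.08). The other members that fell were ATP5MF, ATP5MG and ATP5MC1 (-0.36, -0.11 and -0.10).

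**Figure D2:**
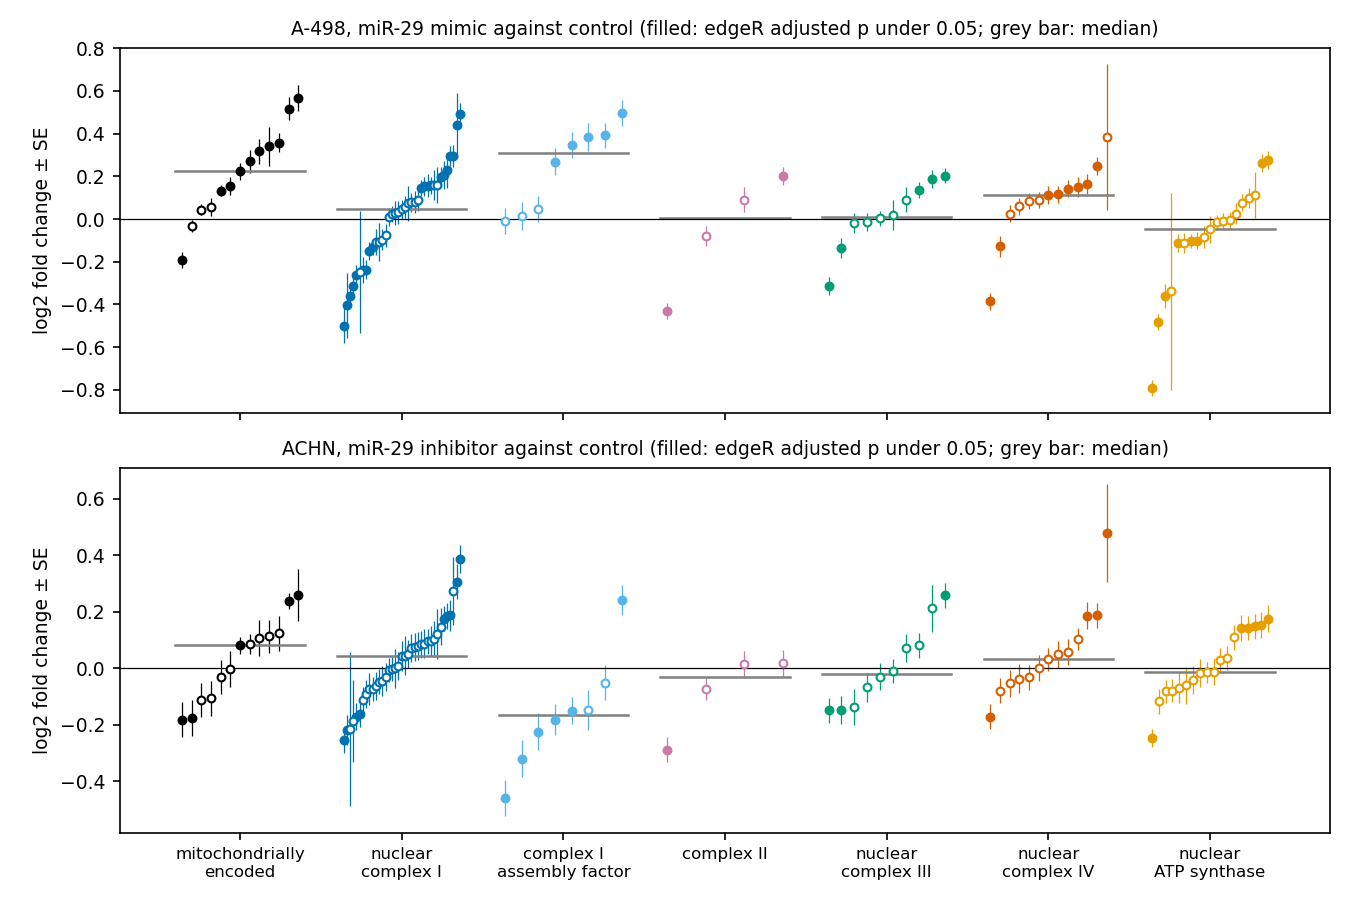
Log2 fold change of each tested member (vertical axis, with its SE) in A-498 (mimic against control, upper panel) and ACHN (inhibitor against control, lower panel), grouped by complex and ordered within it, with filled points for members past the threshold and a grey bar for the median. The NDUFAF assembly factors of complex I lie mostly above 0 in A-498 (median 0.31) and mostly below 0 in ACHN (median -0.17). ATP5F1C stands apart as the lowest point in A-498.

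The miR-29 inhibitor in ACHN was compared with its control to see how the members respond to less miR-29. Of 103 members tested, 16 fell, 18 rose and 69 did not pass the test. These shares, 15.5% and 17.5%, are close to those of all 17904 genes, of which 14.4% fell and 17.3% rose. The median log2 change of the members was -0.0021 against 0.0038 over all genes. Without control replicate 1 the number that fell was 9, and without control replicate 2 the number that rose was 10.

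In ACHN the mitochondrially encoded mRNAs gave 2 falls (15.4% of the 13) and 3 rises (23.1%), beside 14.4% and 17.3% for the whole table. MT-CO3 went from 2049.5, 1982 and 2043 to 2418, 2369.6 and 2323 CPM (0.24, SE 0.0293, edgeR adjusted p = 5.23e-06), with all inhibitor libraries above all controls. MT-CO1 and MT-ATP8 were called higher (0.08 and 0.26) and MT-ND2 and MT-ND4L lower (-0.18 each), and each of these 4 calls was lost when at least 3 different single libraries were left out. MT-ND1, MT-ND5 and MT-ND6, which rose in A-498, did not pass the test in ACHN (-0.11, -0.11 and -0.0021). The share of counts in the 13 genes was 0.762%, 0.720% and 0.732% in controls and 0.820%, 0.787% and 0.781% with the inhibitor (exact permutation p = 0.1, the smallest that 3 against 3 libraries allow).

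In complex I, 5 subunits rose and 4 fell out of 37 (13.5% and 10.8%, near the 17.3% and 14.4% of all genes). NDUFB1, an accessory subunit of the membrane arm, went from 24.7, 24.8 and 23.4 to 31.4, 32.2 and 31.1 CPM (0.39, SE 0.0503, edgeR adjusted p = 9.92e-06). NDUFA2 went from 22.9, 21.9 and 22.7 to 27.5, 30.3 and 25.4 CPM (0.31, edgeR adjusted p = 0.00077). NDUFAB1, the mitochondrial acyl carrier protein, went from 58.8, 58.8 and 57.9 to 50.2, 46.4 and 49.3 CPM (-0.25, edgeR adjusted p = 0.000215).

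The NDUFAF assembly factors fell for 5 of 8 genes and rose for 1 (62.5% and 12.5%, against 14.4% and 17.3% of all genes). Without control replicate 1 the number that fell was 3. NDUFAF4 went from 20.4, 20.4 and 21.0 to 15.9, 13.8 and 14.9 CPM (-0.46, SE 0.0648, edgeR adjusted p = 2.63e-05), and NDUFAF5 from 15.9, 16.0 and 14.7 to 12.2, 12.3 and 12.5 CPM (-0.32, edgeR adjusted p = 0.000989). NDUFAF8 went from 32.0, 34.3 and 35.1 to 40.3, 41.9 and 36.9 CPM (0.24, edgeR adjusted p = 0.00183). The summed level of the 8 genes was 189 ± 1.17 CPM in controls and 173 ± 1.94 with the inhibitor (SD, n = 3 each). The summed markers of the renal tubule moved alongside, since 5 of their 7 genes rose in A-498 and 4 of 7 fell in ACHN, and their part in these changes was not tested.

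SDHB was the only complex II subunit called in ACHN and went from 109.5, 108 and 108 to 88.5, 86.2 and 89.4 CPM (-0.29, SE 0.0445, edgeR adjusted p = 6.64e-05). SDHA did not pass the test there (262, 264 and 270.0 against 247, 259.7 and 245 CPM, -0.07). In complex III, UQCR10 went from 42.0, 41.7 and 40.8 to 49.8, 50.6 and 47.5 CPM (0.26, edgeR adjusted p = 0.000171), while CYC1 and UQCRC2 fell (-0.15 each). Neither fall was called without control replicate 1 (adjusted p = 0.0627 and 0.0618), and that of CYC1 was also lost without control replicate 3, inhibitor replicate 1 or inhibitor replicate 3. In complex IV, COX8A rose from 50.2, 49.8 and 49.2 to 56.8, 58.7 and 53.4 CPM (0.19, edgeR adjusted p = 0.00279), although 35.4% of its exon bases are shared with another gene of the same strand. NDUFA4L2 rose at its low level, from 1.46, 1.53 and 1.33 to 2.03, 2.50 and 1.51 CPM (0.48, edgeR adjusted p = 0.0412), a call lost in 7 of 11 alternatives.

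The ATP synthase member that changed most in ACHN was ATP5F1B, which went from 1283, 1246 and 1283 to 1065, 1057 and 1067 CPM (-0.25, SE 0.0312, edgeR adjusted p = 7.47e-06). It is the nuclear member with the highest level per kb of annotated exon in ACHN controls. ATP5F1C, the gene with the largest fall in A-498, was at 143, 138 and 141 CPM in controls and 140.2, 131 and 144 with the inhibitor, and its log2 change had a 95% interval of -0.11 to 0.08. ATP5F1A did not pass the test either (-0.01), and ATP5IF1, ATP5ME, ATP5MF, ATP5MG and ATP5F1E rose by 0.14 to 0.18. With all libraries, 5 of 18 tested ATP synthase members were called higher (27.8%, against 17.3% of all genes). The number was 0 without control replicate 2, 2 without inhibitor replicate 1, and 3 without control replicate 3 or inhibitor replicate 3.

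Set side by side, the mimic and the inhibitor moved most of the shared calls in opposite directions. The A-498 and ACHN comparisons share no library. Of 102 members tested in both lines, 24 were called in both, a share close to that over all genes, 3878 of 16708. Of the 24 members, 21 (87.5%) were called in opposite directions and 3 in the same direction. Over all genes, 2984 of 3878 genes called in both (76.9%) were opposite, which is the background for this count. Leaving out 1 library at a time gave from 13 to 22 opposite calls among 14 to 25 shared calls (80% to 95%), against 75.8% to 78.9% over all genes, with the fewest without either A-498 mimic library (13 of 14 and 13 of 15). Without the composition factors in A-498 the count was 18 of 23 (78.3%), close to the 77.1% over all genes in that setting. The opposite calls split into 13 members that rose in A-498 and fell in ACHN and 8 that fell in A-498 and rose in ACHN. Over all genes the larger part was the other one, with 1232 that rose in A-498 and fell in ACHN and 1752 the reverse.

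Members that rose under the mimic but fell under the inhibitor were 13 in number: the assembly factors NDUFAF2, NDUFAF3, NDUFAF4 and NDUFAF5, the complex I subunits NDUFAB1, NDUFB9 and NDUFB10, SDHB, the complex III members CYC1 and UQCRC2, COX5A, MT-ND2 and MT-ND4L. NDUFAF4 had the widest gap, 0.50 in A-498 and -0.46 in ACHN. The 8 in the other direction were NDUFB1, NDUFB2, NDUFB3, UQCR10, COX7A2L, COX8A, ATP5MF and ATP5MG. NDUFB1 was at -0.24 and 0.39, COX7A2L at -0.39 and 0.19. The same direction was seen in MT-CO1 and MT-ATP8, higher in both lines, and in ATP5F1B, lower in both, although its A-498 call was lost without either mimic library and without the composition factors.

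Of the 8 members that fell in A-498 and rose in ACHN, 6 were also lower in the 786-O mimic library, namely ATP5MF, ATP5MG, COX7A2L, NDUFB1, NDUFB2 and NDUFB3. In 786-O, 68.3% of all members with a ratio and 51.6% of all genes lay below 0, so 6 of 8 is near the members' share. The values of ATP5MF and COX7A2L are given here. Of the 6, only NDUFB3 kept its call in both lines in every alternative run. ATP5MF, the f subunit of the ATP synthase membrane part, was at 65.3 and 64.2 CPM against 50.2 and 56.3 in A-498 (-0.36), at 64.6, 62.0 and 64.5 against 70.0, 71.0 and 68.6 in ACHN (0.14) and at 33.3 against 24.9 in 786-O (-0.46). COX7A2L was at 109, 105 and 105 against 126, 118 and 115 CPM in ACHN, and 53.0 against 34.9 in 786-O.

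Most of these calls depend on single libraries or on the processing. Of the 21 opposite calls, NDUFAB1, NDUFAF4, NDUFAF5 and NDUFB3 kept theirs in both lines in every alternative run, and 17 were lost in at least 1 alternative in 1 of the lines. In ACHN, COX7A2L was lost without inhibitor replicate 1 (adjusted p = 0.0617), ATP5MF without control replicate 2 or inhibitor replicate 1 (0.1 and 0.0566) and ATP5MG without control replicate 2, control replicate 3 or inhibitor replicate 1 (0.0827, 0.0765 and 0.0888). In A-498, ATP5MG and NDUFB2 were lost without either mimic library and without the composition factors, and NDUFB1 without mimic replicate 2 (adjusted p = 0.1). UQCR10 and COX8A were lost in A-498 in 4 and 5 of 8 alternatives, and SDHB without mimic replicate 1.

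**Figure D3:**
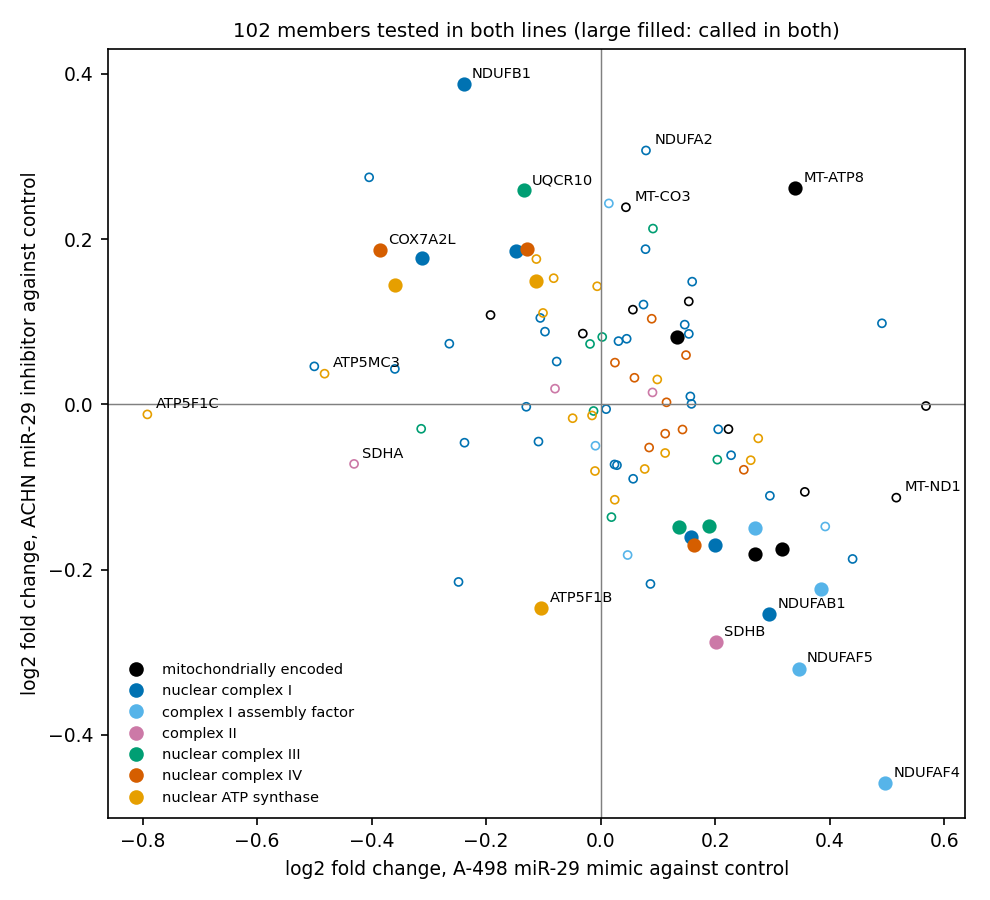
Log2 fold change of each member in A-498 (mimic against control, horizontal axis) and in ACHN (inhibitor against control, vertical axis), with large filled points for members called in both lines, colours for the complexes and names for selected members. Of the 24 members called in both, 21 lie in the upper left or lower right part of the plot, NDUFAF4 farthest out at 0.50 and -0.46, and ATP5F1C lies far left at a vertical position near 0.

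In 786-O, the mimic library was compared with 1 control library, so that ratios are given with no test. Of 104 members with at least 10 counts, 71 lay below 0 (68.3%) and the median log2 ratio was -0.11, against 51.6% below 0 and a median of -0.0148 over all genes. Only 4 members were at least 1.5-fold lower and 0 were at least 1.5-fold higher, where 19.2% and 15.4% of all 20370 genes passed these limits. Among protein-coding genes these shares were 14.7% and 12.9% with no seed match, and 32.2% and 7.09% with a match. The 4 were ATP5F1C (107 to 65.4 CPM, log2 ratio -0.74), COX7A2L (53.0 to 34.9, -0.63), ATP5F1D, the delta subunit of ATP synthase (47.2 to 31.5, -0.62), and ATP5MC3 (81.1 to 54.5, -0.61). ATP5F1C, COX7A2L and ATP5MC3 are among the 5 members of the A-498 list with the largest falls, whereas ATP5F1D did not pass the test in A-498 (0.11).

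The highest 786-O ratios among nuclear members whose counts there sum to 100 or more were those of NDUFAB1 (18.1 to 25.9 CPM, 0.48), COX6C (27.4 to 35.9, 0.36) and NDUFC2 (11.1 to 13.7, 0.26). Of these, NDUFAB1 and COX6C rose in A-498 too (0.29 and 0.11, the latter a call lost in 4 of 8 alternatives), and NDUFC2 fell there. The mitochondrially encoded genes had a median ratio of -0.17, with 10 of 13 below 0 (76.9%, against 51.6% of all genes). MT-ND1 was the highest, from 5643 to 6994 CPM (0.27), and MT-ND4L the lowest, from 1219.9 to 1009.6 CPM (-0.31).

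**Figure D4:**
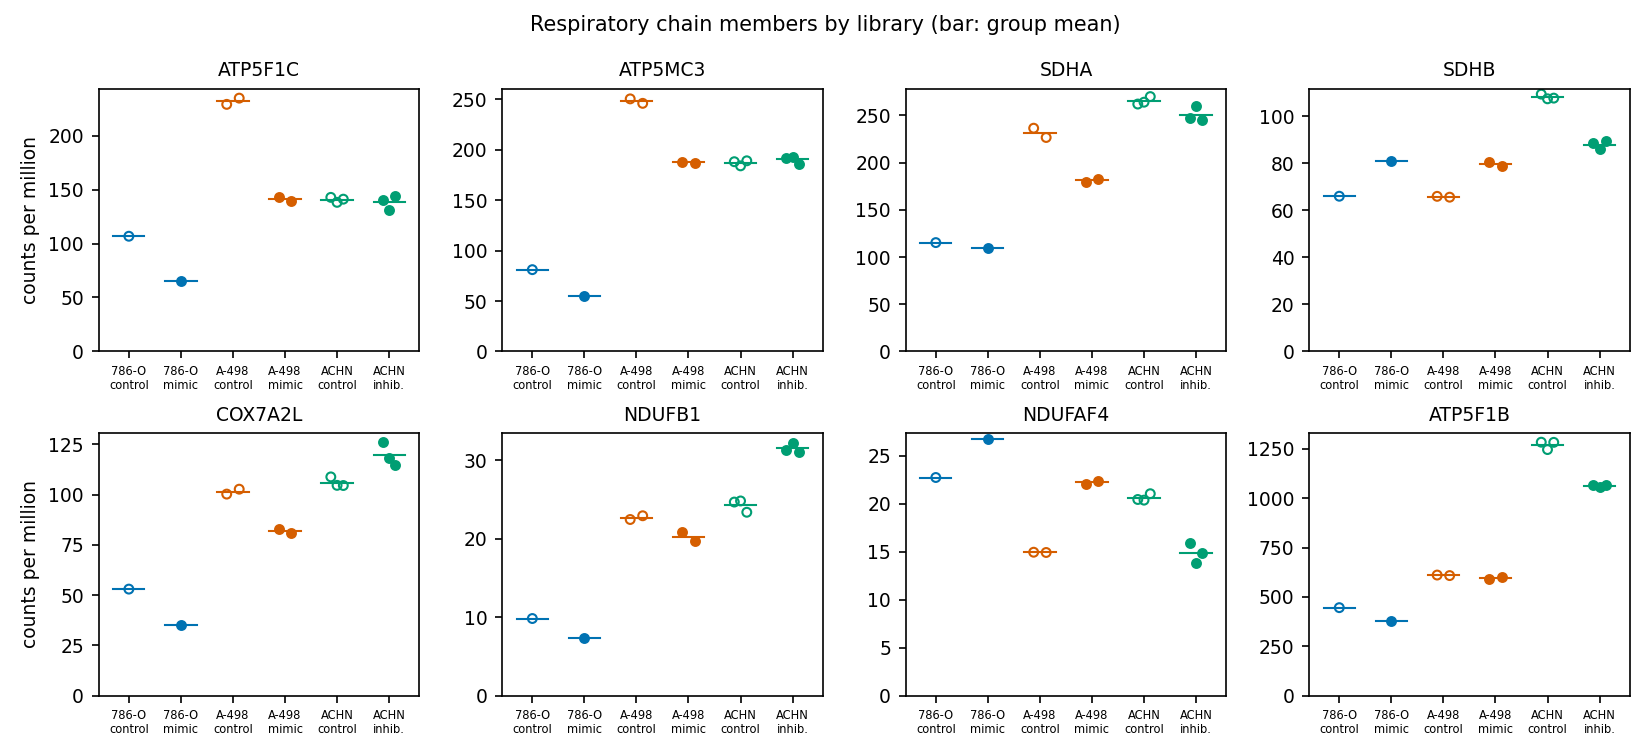
Level (CPM) of selected members in each of the 12 libraries, 1 panel per gene, with open points for control libraries, filled points for treated ones and a horizontal bar for the mean of each group. ATP5F1C and ATP5MC3 are lower with the mimic in both mimic lines, their ACHN groups overlap, and NDUFAF4 is higher with the mimic in A-498 and lower with the inhibitor in ACHN.

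The 11 members with a seed match gave 5 that fell and 1 that rose in A-498, where 54.3% of 2368 protein-coding genes with a match fell and 18.9% rose. Their median log2 change was -0.10, against -0.24 for all protein-coding genes with a match and 0.03 for those with none. Without either mimic library 3 fell and 0 rose, and without the composition factors 3 fell and 2 rose. In ACHN, 0 fell by edgeR (0 by DESeq2, 1 at an unadjusted p under 0.05) and 2 rose (COX7A2L and ATP5F1E), where 10.4% of 2269 genes with a match fell and 39.6% rose. The ATP5F1E call (0.14) was lost in 4 of the 6 fits that left out 1 library, and without inhibitor replicate 1 neither gene was called. In 786-O, 9 of the 11 lay below 0 (81.8%), with a median of -0.20, against 68.9% and -0.29 for 2327 protein-coding genes with a match.

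The members with a match that fell in A-498 were ATP5MC3, COX7A2L, NDUFA10 (72.5 and 70.2 to 63.6 and 63.9 CPM, -0.24), NDUFS1 and ATP5MC1 (-0.13 and -0.10). The matches of NDUFA10 (3384 bases), NDUFS1 (7853 and 8558) and ATP5F1E (2870) lie far from the stop codon. Only the longest annotated 3′ UTR was searched, so shorter transcripts may lack them. COX7C rose (174 and 167 to 197 and 199 CPM, 0.14), a call lost without either mimic library. Of the 3 members with an 8mer match, ATP5MC3 fell in A-498 while NDUFA4 (198 and 208 to 222 and 224 CPM, 0.06, 95% interval -0.02 to 0.13) and UQCR11 (15.2 and 14.3 to 15.2 and 16.3 CPM, 0.02) did not pass the test. The match in COX7A2L is not followed by an A and is therefore no 8mer. ATP5F1C, SDHA and NDUFC2, which also fell in A-498, had no match in the 3′ UTR searched.

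The genes that express the mitochondrial genome were read from a list of 24, all tested. In A-498, 13 rose (54.2%, against 25.5% of all genes) and 4 fell (16.7%, against 27%), with a median of 0.14. The number that rose there was 9 without mimic replicate 1 and 17 without the composition factors, and that which fell was 3 or 4 in all alternatives. In ACHN, 15 fell (62.5%, against 14.4% of all genes) and 0 rose by edgeR (0 by DESeq2, 0 at an unadjusted p under 0.05), with a median of -0.18. The number that fell in ACHN was 13 to 17 in the fits that left out 1 library and the number that rose stayed at 0. TFB2M, a transcription factor of mitochondrial DNA, went from 31.7 and 33.1 to 54.2 and 53.5 CPM in A-498 (0.66) and changed by -0.32 in ACHN. LRPPRC, which stabilises mitochondrial mRNAs, was at 0.31 and -0.24, and TUFM, the mitochondrial elongation factor, at 0.37 and -0.26. TEFM, the transcription elongation factor, MTPAP, the poly(A) polymerase, and POLG, the DNA polymerase, fell in A-498 (-0.58, -0.39 and -0.28) and did not pass the test in ACHN.

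Assembly factors outside the rule gave a mixed picture. Of 43 matched genes, 13 fell and 12 rose in A-498, and 8 fell and 3 rose in ACHN. In A-498 these shares, 30.2% and 27.9%, are close to the 27% and 25.5% of all genes, and in ACHN they were 18.6% and 6.98% against 14.4% and 17.3%. Complex I assembly factors in this list included ECSIT, TMEM126A and NUBPL, which fell in A-498 (-0.50, -0.23 and -0.22), and TIMMDC1, which rose (0.26). ACAD9, TMEM126B and FOXRED1 did not pass the test there. In ACHN TIMMDC1 fell (-0.12) and the others just named did not pass the test. UQCC1, an assembly factor of complex III, was at 0.60 in A-498 and -0.17 in ACHN. ATPAF2, an assembly factor of ATP synthase, was at -0.48 and 0.27. Of 10 genes listed as nuclear regulators of respiratory genes, 4 rose and 3 fell in A-498, and 1 rose and 6 fell in ACHN. The list also holds CYCS, which encodes cytochrome c and is no regulator, and TFAM, already counted among the genes that express the mitochondrial genome. Both are among the 4 that rose in A-498 (0.12 and 0.15) and the 6 that fell in ACHN (-0.22 each). The A-498 shares were 40% and 30%, against 25.5% and 27% of all genes. In ACHN they were 10% and 60%, against 17.3% and 14.4%. ESRRA, a nuclear receptor that drives respiratory genes, was at 0.69 in A-498 and -0.38 in ACHN, while GABPB1 and YY1 fell in A-498 (-0.60 and -0.42). NRF1 fell in both lines (-0.19 and -0.24). PPARGC1A and PPARGC1B did not pass the test in A-498, and in ACHN PPARGC1A rose (0.29) and PPARGC1B fell (-0.66).

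Some values carry counting limits. At least 10% of the exon bases of 17 members are shared with another gene of the same strand, among the genes named here COX6A1, COX8A, MT-ATP8, NDUFA9, NDUFB8, NDUFC2, SDHD and UQCR11, and strict counting drops reads that fall in both. The annotation names 5 or more pseudogenes for 15 nuclear members, COX6C and ATP5MG among them. Levels of such genes between lines are less certain than their changes within a line.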

How the data were processed

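Groups were taken from the labels of the 12 libraries. The authors depleted ribosomal RNA, prepared stranded libraries, aligned paired reads to GRCh38 with HISAT2 and deposited raw counts per Ensembl gene from HTSeq-count in strict intersection mode. Symbols came from GENCODE release 44, which names 56948 (98.1%) of the 58051 genes counted. The deposited DESeq2 tables hold the authors' own comparisons and were not used, and further A-498 libraries were not analysed here. The study states that it excluded some A-498 samples of the mimic experiment for potential mislabeling.

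Counts were tested per line with edgeR 4.0.16 (R 4.3.3): filterByExpr, TMM factors, quasi-likelihood F-test, Benjamini-Hochberg adjusted p under 0.05 over all genes. For 786-O, log2 ratios with a prior count of 2 were taken for genes with at least 10 counts. Shares were compared by exact permutation. Alternatives were DESeq2 1.42.0, library-size scaling, no filter, mitochondrial genes left out, each library left out and, in ACHN, the replicate number as a block. The test code was tested on simulated data. Intervals and floors cover counting or model error only.

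Genes were named by rule: the mitochondrial members; per comparison and direction, the 5 nuclear members with the widest called change, non-overlapping groups and a log2 CPM of 3 or more; in 786-O, the 3 nuclear members at each end with at least 100 counts; called members with a seed match; members that fell in A-498, rose in ACHN and lay below 0 in 786-O; and a panel of well-known members. Other genes were named after their values were seen. The members, lists and rules were chosen with earlier results of these data known. Promoter sequences were not used here. Python 3.11.15, pandas 2.3.3, NumPy 2.4.6, SciPy 1.17.1 and matplotlib 3.10.9 were used.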

Additional observations from a re-analysis of the deposited data

Results flagged for a closer look

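Whether the mimic acted differently in 786-O than in A-498 was tested by an interaction term in an edgeR quasi-likelihood fit over the 6 mimic-line libraries with its own scaling, added after seeing the data. Its spread comes from A-498 alone, and the single 786-O libraries are assumed to vary alike. Of 105 members, 27 differed (25.7%), against 6695 of 22587 genes (29.6%), and 22 of the 27 (81.5%) were more negative in 786-O, against 2972 of the 6695 genes (44.4%).

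Among the mitochondrial mRNAs, the 786-O change lay below that of A-498 by -0.72 on the log2 scale for MT-ND6 (adjusted p = 4.53e-06), -0.56 for MT-ATP8 (0.000247), -0.52 for MT-ND4L (3.75e-06), -0.34 for MT-ND4 (2.67e-05) and -0.28 for MT-ND5 (0.000121), all by edgeR. Smaller differences were found for MT-CO2 (-0.21, edgeR adjusted p = 0.00105), MT-ND1 (-0.19, 0.0231), MT-ND2 (-0.16, 0.0282), MT-CO3 (-0.16, 0.00804) and MT-CO1 (-0.12, 0.0207). Of these 10, MT-ND1, MT-ND2 and MT-ND5 rose in A-498 and also lay above 0 in 786-O, at 0.27, 0.10 and 0.017, whereas MT-ND6 was at -0.21 there.

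Among nuclear members, NDUFA3 (-0.82, edgeR adjusted p = 2.83e-05), NDUFAF2 (-0.50, 0.0167) and NDUFAF6 (-0.48, 0.00227) had lower values in 786-O, where their ratios were -0.38, -0.17 and -0.14. NDUFC2 (0.82, edgeR adjusted p = 0.000245) and SDHA (0.37, 0.000458) had higher values in 786-O, so the fall of SDHA in A-498 (-0.43) stood against a ratio of -0.11 in 786-O. Cell line, sequencing run and library number differ together here and cannot be told apart.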

How the results depend on the processing

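In A-498 the number of members lower was 21, and 13 with library-size scaling; leaving out 1 library gave 13 to 24 lower and 23 to 39 higher (37 with all), the lowest both without mimic replicate 1. In ACHN it gave 9 to 19 lower (16 with all) and 10 to 19 higher (18 with all), the lowest without control replicates 1 and 2. The A-498 rise of the mitochondrial share, 0.114 percentage points, was 0.126 over protein-coding genes. For library-size scaling the shift of 0.077 is its own construction, and fewer libraries test with less precision. No other cause was tested. Of 76 values for these counts and shares, 6 were flagged as moved and 70 were not, but the 70 were not all unchanged. Among them was the number higher in A-498 with library-size scaling. There 44 nuclear and 11 mitochondrial members rose, against 28 and 9 in the main fit. Of the single-gene results 846 kept their call, 57 lost it and 11 gained one, with 0 reversed.

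With the replicate number as a replicate block, ACHN gave 16 lower and 19 higher (MT-CO2 gained, edgeR adjusted p = 0.0447). Same-numbered libraries did not deviate together (r = 0.042, -0.050 and -0.0047 over genes), so the numbers were not taken as pairs. A-498 groups share 1 number, so no paired fit was made there. Depth is ample for nearly all members. The small number of libraries, 1 per group in 786-O, limits what can be said.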

Other observations

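Some called members lie outside the rules that chose the genes named above and were picked after their values were seen. NDUFS4, an accessory subunit of complex I known from inherited complex I deficiency, fell in A-498 from 43.3 and 43.0 to 35.9 and 35.0 CPM (log2 change -0.36, edgeR adjusted p = 3.24e-05) and did not pass the test in ACHN (0.04). COX7A2, the widely expressed form of complex IV subunit 7A, rose in A-498 from 79.7 and 79.3 to 99.6 and 99.8 CPM (0.25, edgeR adjusted p = 0.000148) while its relative COX7A2L fell there. In ACHN its values were 93.9 to 97.1 CPM in controls and 88.7 to 90.1 CPM with the inhibitor (-0.08), which did not pass the test. NDUFB5 rose in A-498 from 53.8 and 59.0 to 73.2 and 72.8 CPM (0.30, edgeR adjusted p = 0.000209). NDUFV2, a core subunit of complex I, was counted at only 1.61 to 3.50 CPM in the 12 libraries, and 28.4% of its exon bases are shared with another gene of the same strand. It was called lower in A-498, a call lost by DESeq2 (log2 change -0.41), without the composition factors (-0.33) and when some single libraries were left out.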
